A study of Mus musculus with 6 samples.

Results

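The genes described here are 40 regulators, targets and enzymes of antioxidant defence around the transcription factor NRF2, chosen by name and all found in a table of 35275 Ensembl gene identifiers. They comprise the NRF2 regulators, the glutathione and thioredoxin systems, the enzymes that supply NADPH, the enzymes that remove peroxides and superoxide, glutathione transferases, heme and iron proteins, and a few further NRF2 targets. Of the 40, 39 had a mean of at least 1 FPKM (a fragment count divided by gene length and by library size) over the 6 libraries and were tested. Gpx2 was the exception.

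The libraries came from epidermal cells of mouse back skin, strain CD1 IGS, at E16.5, after the dams had been fed doxycycline since E14.5 (days of gestation). The control group and the K10-spastin group had 3 libraries each, and per the labels every library had its own RNA sample. K10-spastin embryos had the genotype K10rtTA;TREspastin. In them the keratin 10 promoter, which is active in suprabasal keratinocytes, drives a doxycycline-dependent activator of the microtubule-severing enzyme spastin and of the nuclear marker H2B-GFP. In both groups, which both had doxycycline, H2BGFP+ cells were sorted. The sources used here do not give the transgenes of the control embryos or the number of embryos in a library. The p-values therefore measure the spread between these RNA samples, and effects of spastin and of the remaining transgenes cannot be told apart. In sorted bulk RNA, fewer cells of a type and less RNA per cell cannot be told apart.

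NRF2, encoded by Nfe2l2, is held in the cytoplasm and marked for destruction by KEAP1. Oxidants and electrophiles modify cysteines of KEAP1, NRF2 then enters the nucleus, pairs with a small MAF protein and binds antioxidant response elements, where BACH1 acts as a competing repressor. Its targets make and recycle glutathione and thioredoxin, supply NADPH and conjugate or reduce reactive compounds. In skin the pathway is known for protecting keratinocytes from ultraviolet light and chemicals, and its forced activation changes the cornified layer.

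Promoter sequences are shown for the 4 members that differed between the groups and for 3 members that share letters with them. They are RefSeq sequences in build GRCm38.p6, printed 5′ to 3′ on the gene's strand, and positions count back from the annotated transcription start. The sources used here do not give the build of the deposited table. Capitals mark matches, on either strand, to the antioxidant response element core TGACNNNGC, to its variant TGAGNNNGC, or to the AP-1 site TGAGTCA, which can overlap either of them. The windows are Srxn1, plus strand, chr2:152105354-152105523; Nqo1, minus strand, chr8:107403206-107403355; Sod1, plus strand, chr16:90220612-90220761; and Gsto1, plus strand, chr19:47854823-47854972. The shorter windows are Gstp1, minus strand, chr19:4037952-4038012, Osgin1, plus strand, chr8:119437022-119437082, and Prdx1, plus strand, chr4:116685439-116685498.
Srxn1: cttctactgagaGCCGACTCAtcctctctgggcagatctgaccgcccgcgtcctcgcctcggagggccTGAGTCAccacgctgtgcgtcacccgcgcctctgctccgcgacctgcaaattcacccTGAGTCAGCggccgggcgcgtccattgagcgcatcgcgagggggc
Nqo1: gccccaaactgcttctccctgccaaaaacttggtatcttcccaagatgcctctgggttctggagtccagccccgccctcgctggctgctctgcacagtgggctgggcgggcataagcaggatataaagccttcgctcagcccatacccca
Sod1: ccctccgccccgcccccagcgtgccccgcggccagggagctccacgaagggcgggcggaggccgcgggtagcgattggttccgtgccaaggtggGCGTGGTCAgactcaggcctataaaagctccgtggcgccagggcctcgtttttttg
Gsto1: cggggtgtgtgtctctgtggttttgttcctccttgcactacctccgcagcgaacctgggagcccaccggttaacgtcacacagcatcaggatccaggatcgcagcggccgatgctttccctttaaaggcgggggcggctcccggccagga
Gstp1: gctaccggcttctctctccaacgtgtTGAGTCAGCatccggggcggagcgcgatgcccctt
Osgin1: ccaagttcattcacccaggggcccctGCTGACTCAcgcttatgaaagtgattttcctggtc
Prdx1: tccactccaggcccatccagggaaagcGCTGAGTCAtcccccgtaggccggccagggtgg

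The Srxn1 window held TGAGNNNGC on the other strand at position -158, an AP-1 site at position -102 and a second, within the longer match TGAGTCAGC, at position -45. The same 9 letters stood at position -74 of the Gstp1 promoter, and on the other strand at position -99 of the Osgin1 promoter. Beyond the printed stretch, at position 29 after the start, Srxn1 also held TGACNNNGC on the other strand. TGAGTCAGC was found on either strand in 0.414% of all 32851 promoter windows of 300 bases, which run from 250 bases before to 50 bases after a start. The core TGACNNNGC was found in 12.4% of all windows and in 12 of the 51 windows that matched 35 of the members (23.5%). The AP-1 site was found in 5.20% of all windows and in 6 member windows, and TGAGNNNGC in 17.6% and in 13. The Sod1 promoter held TGACNNNGC on the other strand at position -56, and the Prdx1 promoter held it overlapping an AP-1 site at position -133. No match to any of the 3 motifs lay in the windows of Nqo1 and Gsto1, which says only that these letters are not in those 300 bases. A match is a description of the letters and not evidence of binding.

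Spast, read as a check of the labels, was at 21.2 to 24.02 FPKM in control, and K10-spastin 1, 2 and 3 had 1431, 639 and 213 FPKM. The 6 libraries held 16.0 to 22.5 M (mega) fragments as read from the steps of their low values. In the fit over 11071 genes, 569 were called higher in K10-spastin and 653 lower (limma, adjusted p under 0.05), or 11.0% in all. On the first principal component (62.1% of the variance) the groups were apart, and K10-spastin 1 was farthest from the controls. The suprabasal markers Krt1 and Krt10 were at 11406 FPKM or more and 13075 FPKM or more in every library. Of the 6 suprabasal markers, 3 had a change above 0 and 3 below 0. Only Krt10 was called, and it fell (limma adjusted p = 0.0438). The 6 summed to 51688 to 67976 FPKM in control and to 31269 to 46232 FPKM in K10-spastin. The 6 basal keratinocyte markers summed to 4083 to 7171 FPKM in control and to 2495 to 4723 FPKM in K10-spastin. Of these, 2 had a change above 0 and 4 below 0, and only Krt15 was called, lower (limma adjusted p = 0.0269). All 4 endothelial markers were under 0.2 FPKM in every library. Of 12 macrophage and Langerhans markers, 11 had a mean under 1 FPKM and Cd207 was listed at 0 in all libraries. Of 11 red cell markers measured, 7 had a mean under 1 FPKM, Hbb-y and Hbb-bh1 were listed at 0, and their summed level was 8.35 to 332 FPKM in control and 4.47 to 20.04 FPKM in K10-spastin. The 7 fibroblast markers summed to 6.44 to 42.3 FPKM in control and to 0.791 to 3.03 FPKM in K10-spastin. Of the 4 tested, 1 was called, lower (Dcn). All 4 were lower without overlap of the groups, against 24.8% of all genes. The 6 melanocyte markers summed to 4.44 to 16.6 FPKM in control and to 2.63 to 24.4 FPKM in K10-spastin, and the 6 periderm markers to 6.74 to 39.2 and 6.52 to 16.2 FPKM. The part of these other cell types in the results was not tested.

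Among the antioxidant genes the calls were few and went in both directions. Srxn1 and Nqo1 rose, and Sod1 and Gsto1 fell. These 4 calls are 10.3% of the 39 tested members, near the 11.0% of all genes. Rises made up 5.13% of members against 5.14% of all genes, and falls 5.13% against 5.90%. At an unadjusted p under 0.05 there were 7 higher and 6 lower members, or 33.3%, against 31.5% of all genes. The groups did not overlap in 16 tested members, or 41.0%, against 40.4% of all genes. Of these, 8 were higher and 8 lower, against 15.6% of all genes higher and 24.8% lower without overlap. The median log2 change was -0.07 over the members and -0.09 over all genes tested. A change of less than 0.5 in size was found in 22 of 39 members, or 56.4%, against 67.0% of all genes, and a change beyond 1 in 7 members, or 17.9%, against 11.8% of all genes. Changes are differences of log2(FPKM + 1) and are given with their standard error. This scale understates the change of low genes.

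**Figure D1:**
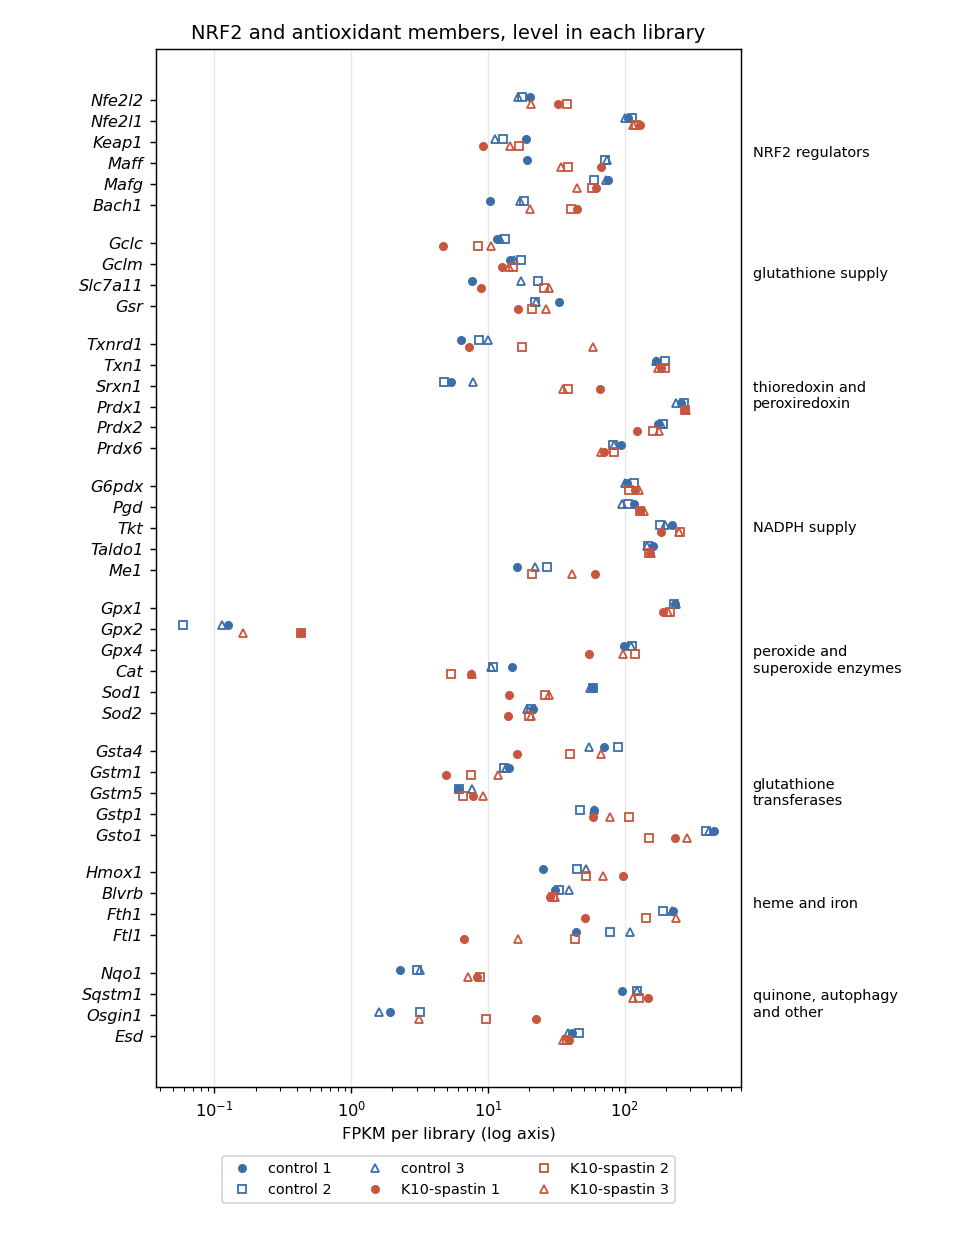
FPKM of each of the 40 members in each library, on a log axis, ordered by role; blue marks are controls, red marks K10-spastin, and shape gives the replicate number. Srxn1 and Nqo1 lie to the right in all 3 K10-spastin libraries, and Sod1 and Gsto1 to the left.

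**Figure D2:**
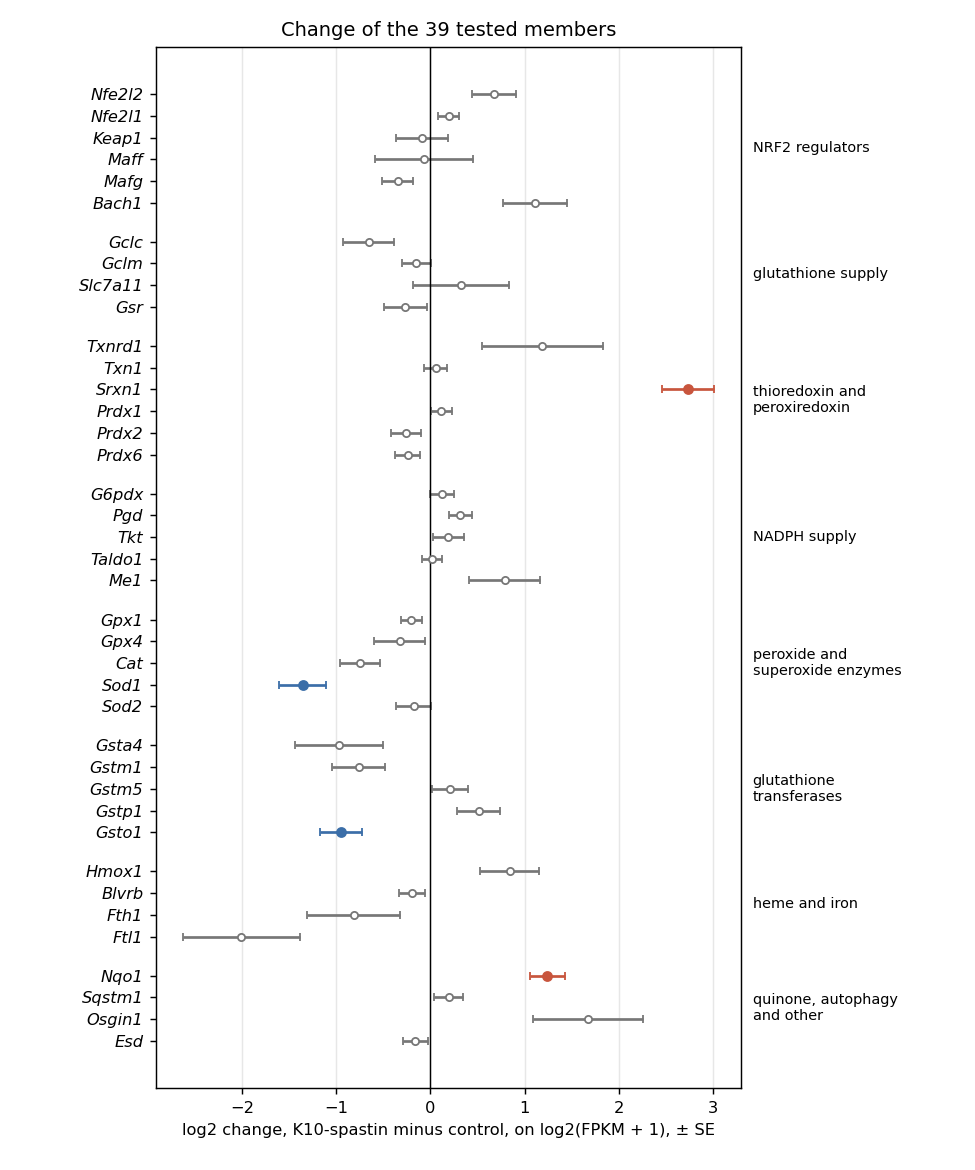
Difference of log2(FPKM + 1), K10-spastin minus control, with its standard error, for the 39 tested members by role. Filled marks are the 4 members with a limma adjusted p under 0.05, red higher and blue lower; open marks are the other 35.

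Together the 40 members held 0.490% to 0.504% of all FPKM in the controls and 0.428% to 0.484% in K10-spastin, with K10-spastin 1 the lowest. On this scale, which is per gene length, the most abundant members were Gsto1, Prdx1, Gpx1, Tkt and Txn1, each with a mean above 180 FPKM. Prdx1 was first in K10-spastin and Gsto1 first in control. Srxn1 moved from rank 37 of 40 in the controls to rank 19 in K10-spastin, while Ftl1 moved from rank 15 to rank 28 and Sod1 from 18 to 27. Neighbours in this order, such as Gpx1 and Tkt, had ranges over the libraries that overlapped.

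Of the 6 regulators, none was called by limma, and Nfe2l2 and Bach1 were higher at an unadjusted p under 0.05. Nfe2l2 itself (NRF2) stood at 20.1, 17.7 and 16.4 FPKM in the 3 controls in order, and 32.6, 37.8 and 20.6 FPKM in the K10-spastin libraries. The K10-spastin libraries were all above the controls, although K10-spastin 3 was close to control 1. Its difference was 0.68 ± 0.23 (limma adjusted p = 0.0965). Bach1, the repressor that competes for the same elements, stood at 10.3, 18.3 and 17.2 FPKM in the 3 controls in order, and 44.3, 40.3 and 20.2 FPKM in the K10-spastin libraries. Here too the groups did not overlap, with K10-spastin 3 only just above control 2, and the difference was 1.11 ± 0.34 (limma adjusted p = 0.0739). Each was called higher in 1 of 15 alternative fits, the one without K10-spastin 3 (limma adjusted p = 0.0237 and 0.0217).

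The other regulators lay closer together. Keap1, the adaptor that targets NRF2 for destruction, was at 19.1, 12.8 and 11.2 FPKM in the controls against 9.22, 16.9 and 14.6 FPKM in K10-spastin, and the groups overlapped (-0.09 ± 0.28, limma adjusted p = 0.863). Nfe2l1, a relative of NRF2 known for proteasome and basal antioxidant genes, was the most abundant regulator at 105, 112 and 100.4 FPKM in the controls against 129, 121 and 114 FPKM in K10-spastin (0.19 ± 0.11, limma adjusted p = 0.290). Its groups did not overlap, but the distance between K10-spastin 3 and control 2 was small. Of the small MAF partners, Mafg was at 75.6, 59.5 and 72.5 FPKM in the controls against 61.1, 57.5 and 44.5 FPKM in K10-spastin (-0.35 ± 0.17, limma adjusted p = 0.202). Its exons overlap those of Sirt7 on the same strand, so reads of the pair may be shared. Maff was at 19.3, 71.3 and 73.9 FPKM in the controls against 67.4, 38.4 and 34.2 FPKM in K10-spastin, with control 1 the lowest of all 6 libraries (-0.07 ± 0.52, limma adjusted p = 0.942). The sign of Keap1 and Maff turned under median-of-ratios scaling. Maff was called lower in 1 of 15 alternative fits, the one without control 1 and K10-spastin 1 (limma adjusted p = 0.0229).

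Thioredoxin and peroxiredoxin genes included the largest change of the set. Srxn1 (ENSMUSG00000032802) encodes sulfiredoxin, which restores peroxiredoxins after their cysteine has been overoxidised. It stood at 5.32, 4.80 and 7.78 FPKM in the 3 controls in order, and 65.7, 38.4 and 35.5 FPKM in the K10-spastin libraries. Every K10-spastin library was several times above every control, and K10-spastin 1 was the highest. The mean went from 5.97 ± 1.59 to 46.5 ± 16.7 FPKM (SD, n = 3), a 7.79-fold difference of means, and the log2 change was 2.74 ± 0.28 (limma adjusted p = 0.00469). This call held under each of 15 alternatives (limma adjusted p up to 0.0287), and no other member did so. No transcript with at least 90% identity over 200 bases was found for Srxn1 in GENCODE release M21.

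The peroxiredoxins did not pass the test. Prdx1, a substrate of sulfiredoxin, was at 258, 268 and 236 FPKM in the controls against 276, 273 and 278 FPKM in K10-spastin, and K10-spastin lay just above the controls (0.12 ± 0.11, limma adjusted p = 0.493). Prdx2, another substrate, was at 173, 189 and 182 FPKM in the controls against 123, 160.1 and 176 FPKM in K10-spastin, with K10-spastin 1 the lowest (-0.26 ± 0.15, limma adjusted p = 0.294). Prdx2 overlaps exons of Junb and Rnaseh2a on the opposite strand, and the strandedness of the counting is unknown here, so its level is uncertain. Prdx6, which also reduces lipid peroxides, had 86.3 ± 6.66 FPKM on average in control against 73.1 ± 8.81 FPKM in K10-spastin (SD, n = 3), with overlapping groups (limma adjusted p = 0.268).

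Txn1, the cytosolic thioredoxin, was at 168, 197 and 169 FPKM in the controls against 184, 197 and 174 FPKM in K10-spastin, with overlapping groups (0.06 ± 0.12, limma adjusted p = 0.782). Txnrd1, the selenoprotein reductase that recharges it and a standard NRF2 target, was at 6.35, 8.65 and 9.94 FPKM in the controls against 7.25, 17.7 and 58.5 FPKM in K10-spastin. The K10-spastin libraries were far apart, with K10-spastin 1 inside the range of the controls and K10-spastin 3 well above all others. The change of 1.19 ± 0.64 was not called (limma adjusted p = 0.247). It was 0.44 without K10-spastin 3 and 1.86 without K10-spastin 1, and with array weights it was 2.10 and called (limma adjusted p = 0.0111). The sign of Txn1 and Prdx1 turned under quantile normalization.

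**Figure D3:**
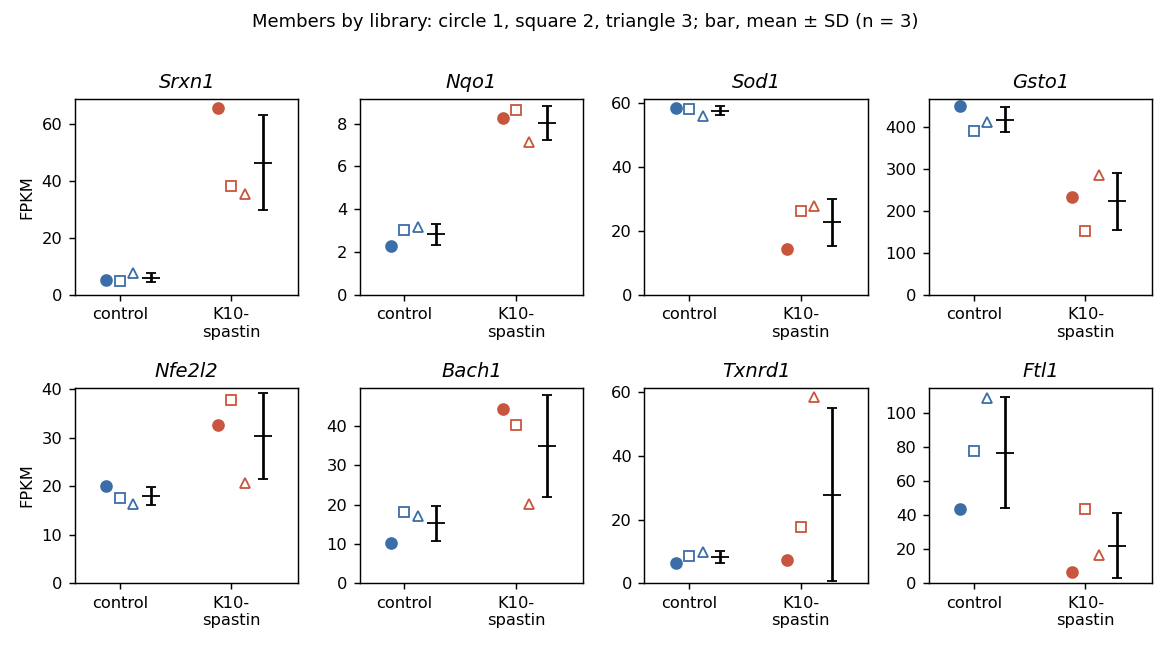
FPKM by library for 8 members, with each group's mean ± SD (n = 3); the vertical axes start at 0. Srxn1, Nqo1, Sod1 and Gsto1 were called, and in Nfe2l2, Bach1 and Txnrd1 the K10-spastin libraries are spread more widely than the controls; in Ftl1 both groups are spread.

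Nqo1 (ENSMUSG00000003849), a reductase that detoxifies quinones and is the most used readout of NRF2, rose from a low level. It stood at 2.26, 3.02 and 3.19 FPKM in the 3 controls in order, and 8.28, 8.65 and 7.12 FPKM in the K10-spastin libraries. All 3 K10-spastin libraries lay close together and above all controls. The mean went from 2.82 ± 0.493 to 8.02 ± 0.797 FPKM (SD, n = 3), a 2.84-fold difference of means and a log2 change of 1.24 ± 0.19 (limma adjusted p = 0.0129). The call was lost in 3 of 15 alternatives, the replicate block and the fits without control 2 or without control 3 (limma adjusted p up to 0.0606).

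Osgin1, an oxidative stress growth inhibitor and NRF2 target, was at 1.92, 3.19 and 1.59 FPKM in the controls against 22.4, 9.63 and 3.11 FPKM in K10-spastin. K10-spastin 1 and K10-spastin 2 were above all controls, while K10-spastin 3 lay inside their range. The change of 1.67 ± 0.58 was not called (limma adjusted p = 0.0998), and it was called only without K10-spastin 3 (limma adjusted p = 0.0175). Sqstm1, the autophagy receptor p62 that binds KEAP1, was at 95.2, 122 and 123 FPKM in the controls against 147, 128 and 115 FPKM in K10-spastin, with overlapping groups (0.19 ± 0.16, limma adjusted p = 0.434). Esd, an esterase that hydrolyses S-formylglutathione, had 41.7 ± 3.92 FPKM on average in control against 37.2 ± 1.88 FPKM in K10-spastin (SD, n = 3) (limma adjusted p = 0.445).

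No gene of glutathione supply was called by limma, and 1 of the 4, Gclc, was lower at an unadjusted p under 0.05. Gclc, the catalytic subunit of the rate-limiting enzyme of glutathione synthesis, was at 11.6, 13.3 and 12.3 FPKM in the controls against 4.65, 8.39 and 10.6 FPKM in K10-spastin. The groups did not overlap, and K10-spastin 3 lay near control 1 (-0.66 ± 0.27, limma adjusted p = 0.150). Gclm, the modifier subunit of the same enzyme and a usual NRF2 target, was at 14.4, 17.3 and 15.3 FPKM in the controls against 12.6, 15.3 and 14.3 FPKM in K10-spastin, with overlapping groups (-0.15 ± 0.15, limma adjusted p = 0.557). Slc7a11, the cystine carrier that brings in the cysteine for glutathione, was at 7.60, 23.2 and 17.4 FPKM in the controls against 8.89, 25.6 and 27.8 FPKM in K10-spastin, with replicate 1 the lowest of each group (0.33 ± 0.51, limma adjusted p = 0.702). Gsr, which reduces oxidised glutathione, was at 32.9, 21.9 and 22.5 FPKM in the controls against 16.52, 20.8 and 26.4 FPKM in K10-spastin (-0.27 ± 0.23, limma adjusted p = 0.464). Neither subunit of the synthesis enzyme was called, higher or lower.

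Of the 5 NADPH enzymes, none was called by limma, and Pgd was higher at an unadjusted p under 0.05. G6pdx, which opens the pentose phosphate pathway, was at 104, 117 and 100.4 FPKM in the controls against 118, 106 and 126 FPKM in K10-spastin, with overlapping groups (0.12 ± 0.13, limma adjusted p = 0.534). Pgd, the next NADPH-forming enzyme of that pathway, was at 117, 105 and 94.9 FPKM in the controls against 128, 129 and 139 FPKM in K10-spastin, and the groups did not overlap (0.32 ± 0.12, limma adjusted p = 0.130). In the non-oxidative branch, Tkt was at 219, 179.6 and 196 FPKM in the controls against 183, 253 and 248 FPKM in K10-spastin (limma adjusted p = 0.458).

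Taldo1, which works beside Tkt, had 150.2 ± 7.73 FPKM on average in control against 152 ± 3.13 FPKM in K10-spastin (SD, n = 3) (limma adjusted p = 0.933). Its sign turned under quantile normalization, while the other 4 were above 0 under both scalings. Me1, the cytosolic malic enzyme, was at 16.3, 26.96 and 21.9 FPKM in the controls against 60.8, 20.9 and 41.1 FPKM in K10-spastin, where K10-spastin 2 lay among the controls (0.79 ± 0.38, limma adjusted p = 0.197).

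Of 5 tested enzymes that remove superoxide and peroxides, 1 fell and 4 did not pass. All 5 changes were below 0, as were those of 6470 of all 11071 genes, but the change of Sod2 was 0.03 without replicate 1 of both groups, and without K10-spastin 1 those of Sod2 and Gpx4 were -0.004 and -0.001. Sod1 (ENSMUSG00000022982), the cytosolic copper and zinc superoxide dismutase, stood at 58.6, 58.1 and 55.9 FPKM in the 3 controls in order, and 14.3, 26.2 and 27.7 FPKM in the K10-spastin libraries. The controls were within a few FPKM of each other, and every K10-spastin library was below them. The mean went from 57.5 ± 1.42 to 22.7 ± 7.37 FPKM (SD, n = 3), and its log2 change was -1.36 ± 0.25 (limma adjusted p = 0.0194). It was called in 12 of 15 alternatives, and it lost its call when control 1, control 2 or control 3 was left out (limma adjusted p up to 0.0818). Its 2 near-identical copies in the annotation were below 1 FPKM. Sod2, the mitochondrial manganese enzyme, was at 21.4, 20.6 and 19.3 FPKM in the controls against 13.9, 20.1 and 20.6 FPKM in K10-spastin, with overlapping groups (-0.18 ± 0.18, limma adjusted p = 0.551).

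Cat, the peroxisomal catalase, was at 14.97, 10.8 and 10.5 FPKM in the controls against 7.48, 5.39 and 7.58 FPKM in K10-spastin. All K10-spastin libraries were below all controls, and the change of -0.74 ± 0.21 missed the threshold (limma adjusted p = 0.0622), which it passed only with array weights (0.0274). Catalase and Prdx2 are also abundant in red cells, whose summed markers are given above and were highest in control 3. The 4 red cell markers tested all had a change below 0, and none was called. The part of red cells in these values, and in those of Sod1 and the other members, was not tested.

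Among the glutathione peroxidases, Gpx1, the main cytosolic form, was at 231, 229 and 237 FPKM in the controls against 189.6, 213 and 205 FPKM in K10-spastin, without overlap (-0.20 ± 0.11, limma adjusted p = 0.246). Gpx4, which removes lipid peroxides from membranes and opposes ferroptosis, was at 98.97, 112 and 110.2 FPKM in the controls against 54.2, 118 and 96.9 FPKM in K10-spastin, and only K10-spastin 1 was far from the rest (-0.32 ± 0.27, limma adjusted p = 0.451). Gpx2, an NRF2 target of gut epithelium, was at 0.125, 0.0585 and 0.113 FPKM in the controls against 0.432, 0.431 and 0.162 FPKM in K10-spastin. For a gene of 1 kb, a floor of 3 fragments equals 0.134 to 0.187 FPKM. Gpx2 thus lay at or under the detection limit in the controls and in K10-spastin 3, and no fold is given.

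Of 5 glutathione transferases, 1 fell. Gsto1 (ENSMUSG00000025068), an omega-class enzyme that reduces dehydroascorbate, was the most abundant member in the controls. It stood at 450.3, 390.0 and 410.2 FPKM in the 3 controls in order, and 232, 151 and 285 FPKM in the K10-spastin libraries. No K10-spastin library reached the lowest control, and K10-spastin 2 was the lowest. The mean went from 417 ± 30.7 to 223 ± 67.5 FPKM (SD, n = 3), and its log2 change was -0.95 ± 0.23 (limma adjusted p = 0.0420). This call was close to the threshold and was lost in 9 of 15 alternatives, among them each control left out, K10-spastin 1 left out and median-of-ratios scaling (limma adjusted p up to 0.133), while its sign was the same in all 15.

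Gsta4, which conjugates the lipid peroxidation product 4-hydroxynonenal, was at 70.03, 88.3 and 54.5 FPKM in the controls against 16.1, 39.8 and 66.7 FPKM in K10-spastin, with K10-spastin 3 inside the control range (-0.97 ± 0.47, limma adjusted p = 0.202). Gstm1 was at 14.3, 13.1 and 13.6 FPKM in the controls against 4.93, 7.48 and 11.9 FPKM in K10-spastin, without overlap (-0.76 ± 0.28, limma adjusted p = 0.114). It was called lower in 1 of 15 alternatives, the fit without K10-spastin 3 (limma adjusted p = 0.0322). Its transcript is close to that of Gstm2, so reads may be split between them.

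The pi-class Gstp1 was at 59.3, 47.04 and 59.1 FPKM in the controls against 58.8, 107 and 77.2 FPKM in K10-spastin. K10-spastin 2 and K10-spastin 3 were above all controls and K10-spastin 1 was not (0.51 ± 0.23, limma adjusted p = 0.171). It was called higher under median-of-ratios scaling (limma adjusted p = 0.0464) and with array weights (0.0247). Gstm5 had 6.58 ± 0.883 FPKM on average in control against 7.81 ± 1.29 FPKM in K10-spastin (SD, n = 3) (limma adjusted p = 0.482).

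Of the 4 heme and iron genes, none was called by limma, with Hmox1 higher and Ftl1 lower at an unadjusted p under 0.05. Hmox1, the inducible heme oxygenase, which BACH1 represses, was at 25.3, 44.4 and 52.3 FPKM in the controls against 96.7, 52.3 and 69.3 FPKM in K10-spastin. K10-spastin 2 was level with control 3, and the change was 0.84 ± 0.32 (limma adjusted p = 0.118). Macrophages also express Hmox1, and the summed macrophage and Langerhans markers were 5.95 to 11.2 FPKM in control and 13.8 to 41.1 FPKM in K10-spastin, of which Cd68 made up 12.6 to 39.02 FPKM in K10-spastin; their part in the result was not tested. Blvrb, which reduces the biliverdin that heme oxygenase makes, was at 31.03, 32.7 and 39.01 FPKM in the controls against 28.1, 29.9 and 30.97 FPKM in K10-spastin (-0.20 ± 0.14, limma adjusted p = 0.382).

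The ferritin subunits store the iron that heme breakdown frees. Ftl1, the light chain, was at 43.6, 77.97 and 109 FPKM in the controls against 6.62, 43.5 and 16.6 FPKM in K10-spastin. The 3 K10-spastin libraries were below the controls, but K10-spastin 2 was level with control 1 within 1 FPKM. The change of -2.01 ± 0.62 was the most negative among members and was not called (limma adjusted p = 0.0777). Ftl1 was called lower under the replicate block (limma adjusted p = 0.0440), with array weights (0.00875) and without K10-spastin 2 (0.0346). Ftl1 has 10 near-identical copies in the annotation, 2 of them at 1 FPKM or more, and Ftl1-ps1 stood at 10.6, 0.203 and 0.590 FPKM in the controls against 15.4, 14.1 and 6.0 FPKM in K10-spastin. The sources used here do not say how reads that fit several copies were placed, and the level of Ftl1 is uncertain. Fth1, the heavy chain, was at 223, 189.8 and 221 FPKM in the controls against 50.7, 143 and 234 FPKM in K10-spastin, with K10-spastin 3 above all controls (-0.81 ± 0.49, limma adjusted p = 0.298).

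K10-spastin 1, which stood apart on the first component and had the highest Spast, weighed on the size of some of these changes. Without K10-spastin 1 the change of Txnrd1 was larger, as given above, and the changes of Fth1, Gpx4 and Gsta4 were -0.20, -0.001 and -0.43, against -0.81, -0.32 and -0.97 with it. Without K10-spastin 1, Srxn1, Nqo1 and Sod1 were called (limma adjusted p = 0.00761, 0.0177 and 0.00811) and Gsto1 was not (0.0588).

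**Figure D4:**
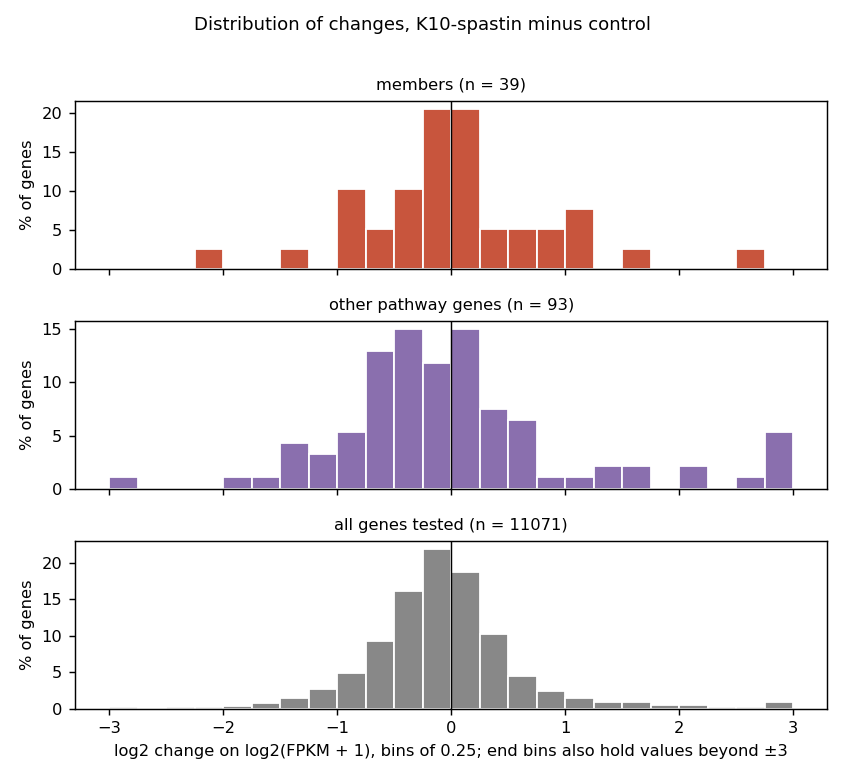
Share of genes by log2 change (K10-spastin minus control, bins of 0.25; the end bins also hold larger changes) for the 39 tested members, the 93 tested genes of the surrounding pathways and all 11071 genes tested. The members are centred near 0, as all genes are, with a median of -0.07.

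Genes of the surrounding pathways, from lists that hold 114 further genes, were read in the same fit. These lists were drawn up with earlier results of these data known, so their share of calls is a description and not a test. Of 93 genes tested, 10 rose (10.8% against 5.14% of all genes) and 9 fell (9.68% against 5.90%). Together they were 20.4% against 11.0% of all genes, and the median log2 change of the 93 was -0.11. Of these 19 calls, 4 held in every alternative in which the gene was tested (Sprr2h, Akr1b8, Mgst2 and Abcc3), and all 19 kept their sign. The calls were fewer with a control left out, at 5 higher and 3 lower without control 1, 4 and 3 without control 2, and 2 and 2 without control 3. Without K10-spastin 2 there were 5 and 5.

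Among partners of the KEAP1 and NRF2 proteins, 1 of 9 tested rose. Nfe2l3, a relative of NRF2, stood at 4.21, 10.3 and 6.35 FPKM in the 3 controls in order, and 48.7, 34.6 and 24.5 FPKM in the K10-spastin libraries. Every K10-spastin library was above every control, and the log2 change was 2.23 ± 0.34 (limma adjusted p = 0.0131). Cul3, the ubiquitin ligase scaffold that KEAP1 uses, and Dpp3, a peptidase that binds KEAP1, had changes of 0.12 ± 0.16 and -0.31 ± 0.15 (limma adjusted p = 0.666 and 0.206).

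Of 10 further genes of glutathione synthesis and turnover, 2 rose and 2 fell. Ggct, the cyclotransferase of the gamma-glutamyl cycle, was at 25.1, 35.2 and 23.9 FPKM in the controls against 104, 63.6 and 65.2 FPKM in K10-spastin and rose by 1.42 ± 0.24 on the log2 scale (limma adjusted p = 0.0166). Chac1, which degrades glutathione and is known as a stress gene, was at 0.109, 0.496 and 0.443 FPKM in the controls against 2.64, 2.22 and 2.22 FPKM in K10-spastin and rose by 1.33 ± 0.21 from a level near the detection limit (limma adjusted p = 0.0136). Both enzymes form 5-oxoproline.

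Oplah, which opens 5-oxoproline to glutamate, was at 32.9, 24.1 and 34.03 FPKM in the controls against 10.1, 11.6 and 12 FPKM in K10-spastin, without overlap, and had a change of -1.34 ± 0.18 (limma adjusted p = 0.00955). Oplah overlaps exons of Exosc4 and Smpd5 on the opposite strand, so its level is uncertain. The conjugate exporter Abcc3 was at 3.17, 3.09 and 4.98 FPKM in the controls against 0.421, 0.220 and 0.297 FPKM in K10-spastin, with a change of -1.83 ± 0.22 (limma adjusted p = 0.00736). Slc3a2, the heavy chain that Slc7a11 needs, had a change of 0.11 ± 0.16 (limma adjusted p = 0.671).

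Among 22 further transferases and detoxifying enzymes, 1 rose and 2 fell. Akr1b8, an aldo-keto reductase, stood at 0.524, 0.340 and 0.711 FPKM in the 3 controls in order, and 19.6, 20.9 and 6.21 FPKM in the K10-spastin libraries, far higher in every K10-spastin library (3.29 ± 0.43, limma adjusted p = 0.00867). Its near-identical copy Akr1b10 had a mean of 1.20 FPKM, so some reads may be shared. Mgst2, a microsomal transferase, was at 72.97, 72.99 and 68.2 FPKM in the controls against 23.7, 23.2 and 32.1 FPKM in K10-spastin and had a change of -1.42 ± 0.16 (limma adjusted p = 0.00553). Gsta2 had a change of -1.42 ± 0.33 (limma adjusted p = 0.0375), and its reads may be split with Gsta1. Akr1a1, an aldehyde reductase and the most abundant of the 22, had a change of -0.07 ± 0.15 (limma adjusted p = 0.781). Of the 22, 17 had a change below 0, as had 6470 of all 11071 genes, and the median was -0.43 against -0.09.

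Among 19 further thioredoxin, glutaredoxin and related genes, 2 rose and 2 fell. Glrx, the cytosolic glutaredoxin, was at 23.3, 49.00 and 43.7 FPKM in the controls against 114, 105 and 415 FPKM in K10-spastin, with K10-spastin 3 far above the rest (2.18 ± 0.54, limma adjusted p = 0.0456). Glrx2 was at 15.1, 17.4 and 15.4 FPKM in the controls against 25.8, 24.3 and 27.4 FPKM in K10-spastin, without overlap (0.66 ± 0.14, limma adjusted p = 0.0299). The mitochondrial methionine sulfoxide reductase Msrb2 and the stress gene Sesn1 had changes of -0.97 ± 0.25 and -1.23 ± 0.32 (limma adjusted p = 0.0498 and 0.0496). Prdx5, a mitochondrial and peroxisomal peroxiredoxin and the most abundant of the 19, had a change of 0.13 ± 0.11 (limma adjusted p = 0.449). Txnip, which binds and inhibits thioredoxin, was at 238, 196 and 166 FPKM in the controls against 3.73, 23.3 and 85.1 FPKM in K10-spastin and was named after its values were seen. All K10-spastin libraries were below the controls and far apart from each other, and the change of -3.21 ± 0.91 was not called (limma adjusted p = 0.0622).

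Ccs, the chaperone that loads copper into SOD1, was the 1 of 7 further peroxidase and dismutase genes that was called. It stood at 40.6, 34.5 and 38.4 FPKM in the 3 controls in order, and 20.4, 21.95 and 25.3 FPKM in the K10-spastin libraries. As with Sod1, all K10-spastin libraries were below all controls, and the log2 change was -0.72 ± 0.14 (limma adjusted p = 0.0256). Of 8 further NADPH genes, the mitochondrial Idh2 fell, with a change of -0.83 ± 0.20 (limma adjusted p = 0.0435). Of 9 further heme and iron genes, the transferrin receptor Tfrc fell, with a change of -0.74 ± 0.18 (limma adjusted p = 0.0428).

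Genes that produce oxidants were also read. Of the 9 listed, 5 were tested and 2 of these rose, against 5.14% of all genes called higher. Both belong to the dual oxidase system that releases hydrogen peroxide at the surface of epithelia. Duoxa1, the maturation factor, was at 1.44, 3.33 and 3.54 FPKM in the controls against 50.7, 24.5 and 11.05 FPKM in K10-spastin (2.79 ± 0.52, limma adjusted p = 0.0207). Duox1, the oxidase, was at 0.287, 0.890 and 0.849 FPKM in the controls against 26.7, 10.3 and 2.47 FPKM in K10-spastin, with K10-spastin 1 the highest (2.64 ± 0.68, limma adjusted p = 0.0496). Duox1 was called in 4 of 15 alternatives (limma adjusted p up to 0.138).

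Of 4 tested epidermal genes that are known to respond to NRF2 in keratinocytes, 2 rose and 2 were not called. Of all genes, 5.14% were called higher, and this short list was drawn up with earlier results of these data known. Epgn, an EGFR ligand, was at 0.177, 5.61 and 6.25 FPKM in the controls against 107, 51.7 and 26.3 FPKM in K10-spastin, with control 1 the lowest (3.81 ± 0.77, limma adjusted p = 0.0269). Sprr2h, a cornified envelope gene, was at 0, 2.08 and 1.37 FPKM in the controls against 389, 149 and 75.6 FPKM in K10-spastin (6.41 ± 0.63, limma adjusted p = 0.00438). Sprr2d, of the same family, was at 0.326, 11.4 and 10.1 FPKM in the controls against 61.5, 85.5 and 26.3 FPKM in K10-spastin (3.22 ± 0.87, limma adjusted p = 0.0562). The untested gene of the list, Elovl3, was listed at 0 in all libraries.

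**Figure D5:**
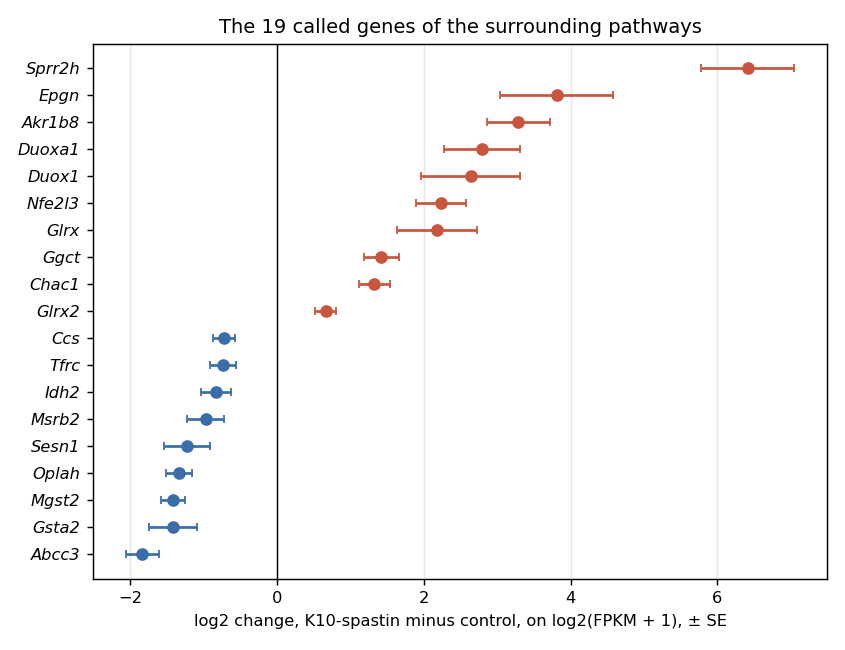
Difference of log2(FPKM + 1), K10-spastin minus control, with its standard error, for the 19 genes of the surrounding pathways with a limma adjusted p under 0.05. The rises reach 6.41 (Sprr2h) and the falls -1.83 (Abcc3).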

How the data were processed

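The authors deposited FPKM per gene and library, 1 column for each of the 6 libraries, without counts. Per the submitters' processing notes the tools included CASAVA and TopHat2, with no version. Not given in the sources used here are the counter, build, annotation and strandedness. Per the labels' protocols, sorted cells gave RNA that was treated to digest DNA before standard Illumina library preparation. Symbols matched 34490 identifiers and left 785.

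Genes whose mean reached 1 FPKM were tested on log2(FPKM + 1) with limma 3.58.1 in R 4.3.3 (lmFit, eBayes with a trend, two-sided, Benjamini-Hochberg over all genes tested), without covariates, and a call is an adjusted p under 0.05. An exact permutation test of 3 against 3 cannot go below 0.1. The script was also run on simulated data with known changes, and the outcome of that run is not reported here.

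The members and lists were chosen with earlier results of these data known, so their counts are descriptions. All members could be named; from each other list, the 3 genes of highest mean FPKM and up to 6 called genes, by p. Not all genes that this rule allows are reported.

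Depth was read from the commonest step of low FPKM over 14953 genes with 1 annotated transcript, of which 90.8% to 91.7% of values up to 20 fragments were whole within 0.05. Copies were sought with BLAST 2.17.0 (90% identity or more across 200 bases or more) in GENCODE release M21. Alternatives were a pseudocount of 0.1, no filter or 5 FPKM, 2 scalings, no trend, array weights, the replicate block, and libraries left out. Tables and figures used pandas 2.3.3, numpy 2.4.6, matplotlib 3.10.9 and Python 3.11.15.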

Additional observations from a re-analysis of the deposited data

How the results depend on the processing

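In the main setting 2 members were higher and 2 lower, 10 and 9 genes of the surrounding pathways, and 569 and 653 of all genes. All 4 called members kept their sign in the 15 alternatives, and 12 members not called were called in at least 1. With array weights the counts were 6 and 5, 17 and 20, and 1535 and 1771. The members added were Gstp1, Pgd, Tkt and Txnrd1, higher, and Cat, Ftl1 and Mafg, lower. With no filter the counts were 2 and 1, 6 and 5, and 319 and 348, with more genes tested. A mean of at least 5 FPKM left 414 lower genes, with fewer tested. Median-of-ratios scaling, which moved the median change of all genes by 0.13, and the fit without a trend each left 1 lower member; the cause was not tested. The replicate block gave 1 higher member (Srxn1) and 2 lower (Sod1 and Ftl1, limma adjusted p = 0.0440 for Ftl1), with Gsto1 lost (0.0563), 6 and 3 surrounding genes, and 274 and 218 of all genes. Same-numbered libraries did not deviate together (correlations -0.13, -0.38 and -0.05), so the numbers are not treated as pairs.

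With each library left out, members higher ranged from 1 to 5 and lower from 0 to 3, surrounding genes from 2 to 10 and from 2 to 11, and all genes from 113 to 691 and from 32 to 701, with fewer samples. Without control 1, 2 or 3 in turn, limma called 0 members lower, with 4 lower each time at an unadjusted p under 0.05; without control 2 or 3 it called 1 higher (Srxn1). The 5 higher members came when K10-spastin 3 was left out, and the 3 lower when K10-spastin 2 or K10-spastin 3 was. With replicate 1 of both groups left out at the same time, 2 members were higher (Srxn1 and Nqo1) and 2 lower (Sod1 and Maff). Depth limits what can be said of Gpx2 and other genes under 1 FPKM.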
